A study of Mus musculus with 6 samples.

Results

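*Trp53*, which encodes the transcription factor p53, its negative regulators *Mdm2* and *Mdm4*, and 7 of its cell-cycle or metabolic targets (*Cdkn1a*, *Ccng1*, *Sesn1*, *Sesn2*, *Zmat3*, *Phlda3* and *Trp53inp1*) were followed in mouse blastocysts. These 10 genes were chosen by symbol for their place in the p53 loop, with apoptotic targets set apart, and all 10 were found by Ensembl identifier among the 55774 genes listed. Wild-type ICR embryos were cultured to the blastocyst stage in CZB medium with extracellular vesicles (EVs, membrane-bound particles that carry RNA and protein) isolated from human Fallopian tubal fluid. The EVs came from women with endometriosis (oEV-EMT) or without it (oEV-ctrl), and 3 libraries per group, each from 10 blastocysts, were sequenced after poly(A) selection. The labels give uterine fibroids and the methods cervical intraepithelial neoplasia as the condition of the women without endometriosis, and the start of culture is given as 2-cell embryos in the labels and as zygotes in the methods. Both groups received EVs, and no library without EVs was analysed here. Whether the 3 libraries of a group came from separate EV preparations is not stated, so the p-values measure the spread between these libraries, which may be technical.

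The p53 protein is kept low in unstressed cells because Mdm2, a ubiquitin ligase, marks it for degradation and because Mdm4 covers its activation domain. Damage and other stresses release p53, which then binds DNA next to its target genes and raises their transcription. *Mdm2* is itself such a target, which closes a negative feedback loop, and other targets halt the cell cycle, restrain growth signalling or handle oxidants. Since p53 is controlled mostly through the stability of the protein, mRNA levels do not measure its activity.

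The short sequences through which these genes are read or bound are given first. p53 binds DNA as a tetramer over a pair of half-sites, each built around a 4-base core. The 60 bases below lie before the RefSeq start of *Cdkn1a* at chr17:29090908-29090967 on the plus strand of GRCm38, and capitals mark a pair of CATG cores, 48 to 35 bases before that start.
Cdkn1a: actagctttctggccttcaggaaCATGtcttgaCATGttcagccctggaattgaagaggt
The stretch between *Trp53* and its neighbour *Wrap53*, which starts in the opposite direction, is 103 bases long at chr11:69580256-69580358, and it is shown on the plus strand with a match to a p53 half-site in capitals.
Trp53-Wrap53: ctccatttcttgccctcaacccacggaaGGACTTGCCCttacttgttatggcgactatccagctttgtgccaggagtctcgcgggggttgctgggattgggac
Windows from 250 bases before to 50 bases after each start were taken from RefSeq (GRCm38.p6), and 8 of the 10 genes had at least 1 window, 11 in all. The core pair CATGNNNNNNCATG, which reads the same on both strands, was in 1 of these 11 windows, that of *Cdkn1a*, and in 0.712% of 32851 windows of all genes. A p53 half-site without mismatch, searched on both strands, was in 5 of the 11 windows and in 8.36% of all windows. The 5 windows belonged to *Trp53*, *Mdm2* (GAACTTGCCT, 186 to 177 bases before the start), *Ccng1* (GGGCAAGCCT, 185 to 176 bases before it), *Sesn1* (AAGCTTGTTT, 173 to 164 bases before it) and *Cdkn1a*, which held 2, and 1 of those 2 overlaps the core pair. For *Sesn1* the match lies in the window of a start inside the gene, chr10:41887189-41887488. Its window nearer the start of the gene, chr10:41810324-41810623, held 0. Such matches describe letters and do not show that p53 binds there.

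*Trp53* was also a gene that the study measured by RT-PCR against *Gapdh*, and its choice for that assay drew on these libraries. By that assay the paper reports it as significantly upregulated in oEV-EMT-treated embryos. The primer pair is shown 5′ to 3′.
Trp53-F: tgaaccgccgacctatcc
Trp53-R: ggcaggcacaaacacgaa
In transcript Trp53-201 the pair spans 96 bases of coding sequence, bases 885 to 980. Of these, 46 lie in exon 7 (chr11:69589205-69589250) and 50 in exon 8 (chr11:69589573-69589622) on the plus strand of GRCm38, so the product crosses an exon junction. The genome also holds a processed copy, *Trp53-ps*, at chr17:54419680-54420841, which carries the same stretch without the intron. Capitals mark where the gene and its copy differ.
Trp53-201: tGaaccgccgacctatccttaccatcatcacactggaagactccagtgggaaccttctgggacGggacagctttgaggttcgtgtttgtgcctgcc
Trp53-ps: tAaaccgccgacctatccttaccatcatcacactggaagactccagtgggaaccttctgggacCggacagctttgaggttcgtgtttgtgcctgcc
The substitutions are G2A, inside the forward primer, and G64C, counted from 1 at the 5′ end of the product with the base of the gene first, and the identity is 97.9%. The reverse primer matched the copy exactly, and the forward primer differed from it only at base 2, near its 5′ end. Whether the pair amplifies the copy was not tested. In the sequencing data *Trp53-ps* stood at 1.51, 0.665 and 1.38 FPKM (fragments per kilobase of transcript, scaled to the fragments of the library) with oEV-EMT and at 0.936, 0.430 and 0.613 FPKM with oEV-ctrl. Its values were far below those of *Trp53* in every library, and 3.64% of the 50-base stretches of *Trp53* transcripts also occur in it.

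The deposited values were FPKM and their sums per library lay between 1293175 and 1551567. Read totals were not given, and the ratio most frequent among values under 0.3 FPKM put oEV-EMT 1, the highest, at an estimated 2.07 times the relative depth of oEV-ctrl 1, the lowest, an estimate that rests on only 40 to 59 of the 4968 to 6414 genes compared per library. Of all genes, 11924 had at least 1 FPKM in at least 3 libraries and were tested with limma on log2(FPKM + 1), a scale that understates the change of low genes. A call needed a Benjamini-Hochberg adjusted p no higher than 0.05 with a log2 fold change of 1 or more in size, and 0 of the 11924 genes were called (0%), the smallest adjusted p being 0.0934. The paper used DESeq2 with the same thresholds and reported both upregulated and downregulated genes between these groups. The count of 0 is therefore that of limma on FPKM and not of every method. At an unadjusted p of at most 0.05, 15.4% of genes differed in either direction, 1527 genes (12.8%) being higher and 304 (2.55%) lower in oEV-EMT blastocysts. The median log2 fold change of all tested genes was 0.17, and 70.1% of them lay above 0. The changes of *Trp53* and *Phlda3* are therefore also given relative to that median, and those of other genes only as fitted. Scaling by median-of-ratios brought the median to 0.0099 and the split at the unadjusted p to 767 higher and 762 lower.

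*Trp53* (chr11:69580359-69591873, plus strand) had the largest log2 fold change of the 9 genes that could be tested on the log2(FPKM + 1) scale, though not under every alternative. It stood at 49.98, 25.9 and 22.7 FPKM with oEV-EMT and at 10.3, 10.9 and 17.6 FPKM with oEV-ctrl. Every oEV-EMT library was above every oEV-ctrl library, with oEV-EMT 1 far above the other two of its group. The means were 32.8 ± 14.9 and 12.9 ± 4.04 FPKM (SD, n = 3 each), and the log2 fold change was 1.23 (SE 0.32, 95% interval 0.52 to 1.94), or 1.06 above the median of all genes. The limma test gave an unadjusted p of 0.00319 and a Benjamini-Hochberg adjusted p of 0.164, so *Trp53* did not pass the thresholds. Without oEV-EMT 1 the log2 fold change was 0.89. In RNA from whole blastocysts, fewer cells of a type and less RNA per cell cannot be told apart.

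**Figure D1:**
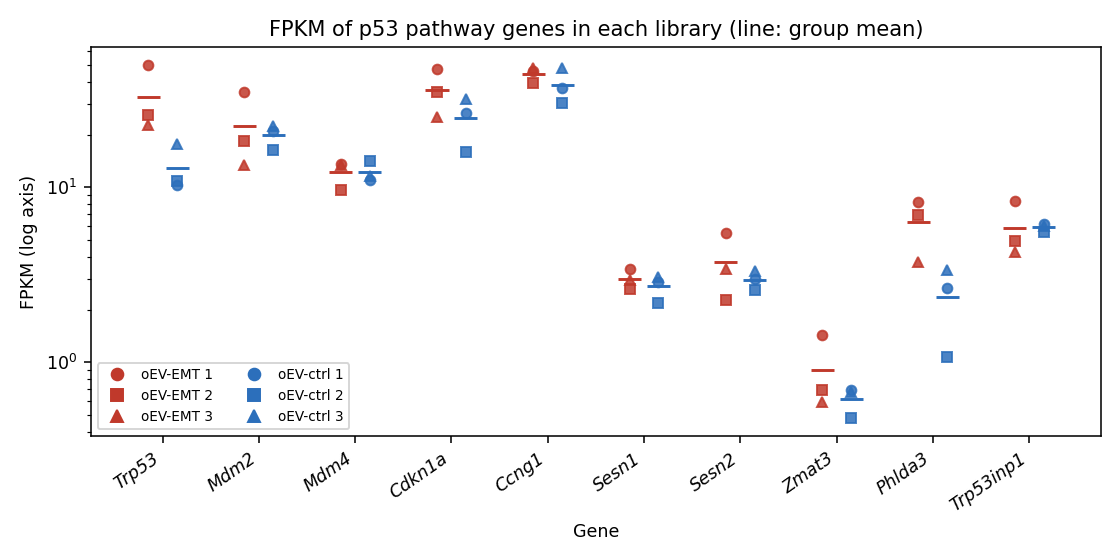
FPKM (log axis) of the 10 genes in each library, with circles, squares and triangles for libraries 1, 2 and 3, oEV-EMT in red, oEV-ctrl in blue, and a line at each group mean. The groups are separate for *Trp53* and *Phlda3*, and the circle of oEV-EMT 1 is the highest point for 8 of the 10 genes.

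Neither negative regulator was separated between the groups. *Mdm2* (chr10:117688875-117710758, minus strand), the ligase of p53, stood at 35.1, 18.3 and 13.4 FPKM with oEV-EMT and at 21.1, 16.3 and 22.3 FPKM with oEV-ctrl. The oEV-EMT libraries held both the highest and the lowest value, so the groups overlapped throughout. The log2 fold change of *Mdm2* was 0.06 (SE 0.32, 95% interval -0.66 to 0.77), with an adjusted p of 0.948 by limma with Benjamini-Hochberg adjustment. It was -0.32 without oEV-EMT 1 and 0.35 without oEV-EMT 3, so its sign depended on single libraries. *Mdm4* (chr1:132959484-133030561, minus strand), the relative of Mdm2 that blocks p53 without degrading it, stood at 13.6, 9.68 and 13.5 FPKM against 11.01, 14.2 and 11.6 FPKM. These groups overlapped as well, around nearly equal means of 12.2 ± 2.21 and 12.3 ± 1.70 FPKM (SD, n = 3 each). The log2 fold change came to -0.010 (95% interval -0.51 to 0.49), with an adjusted p of 0.988 by limma with Benjamini-Hochberg adjustment. The intervals of both regulators reach 0.49 or more on the log2 scale, so changes of that size were not excluded. Of the 50-base stretches of *Mdm4* transcripts, 7.3% also occur in the processed copy *Mdm4-ps*, which was listed at no more than 0.00944 FPKM.

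Ratios of plain FPKM within a library do not depend on how libraries are scaled, and 3 pairs of genes were compared. The test used FPKM + 1, which does depend on scale, and other scalings were not run for it. The FPKM of *Trp53* over that of *Mdm2* was 1.42, 1.41 and 1.70 with oEV-EMT and 0.490, 0.667 and 0.790 with oEV-ctrl. *Trp53* was thus the more abundant mRNA of the pair, per length, in every oEV-EMT library and the less abundant in every oEV-ctrl library. The log2 ratio of the values with 1 FPKM added was 0.56 ± 0.14 and -0.61 ± 0.33 (SD, n = 3 each), a difference of 1.17, with an exact two-sided permutation p of 0.1 and an adjusted value of 0.1 over the 3 ratios. That p is the smallest that 3 libraries against 3 allow, so the design could not reach 0.05. The ratio of *Trp53* to *Mdm4* was 3.68, 2.67 and 1.68 against 0.937, 0.768 and 1.52, again without overlap, although oEV-EMT 3 and oEV-ctrl 3 were close. Its log2 form differed by 1.24 (1.28 ± 0.55 and 0.04 ± 0.47, SD, n = 3 each, exact permutation p = 0.1). The ratio of *Cdkn1a* to *Trp53* went the other way, at 0.949, 1.36 and 1.11 with oEV-EMT and 2.58, 1.46 and 1.82 with oEV-ctrl. Its log2 form differed by -0.71 (0.17 ± 0.25 and 0.87 ± 0.39, SD, n = 3 each, exact permutation p = 0.1), so *Cdkn1a* mRNA was lower per *Trp53* mRNA in every oEV-EMT library. The 3 ratios share *Trp53* and are not independent of each other. *Trp53* alone already separated the groups, so the ratios are no support beyond its own values. How many other genes would separate the groups in a ratio with *Trp53* was not counted.

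**Figure D2:**
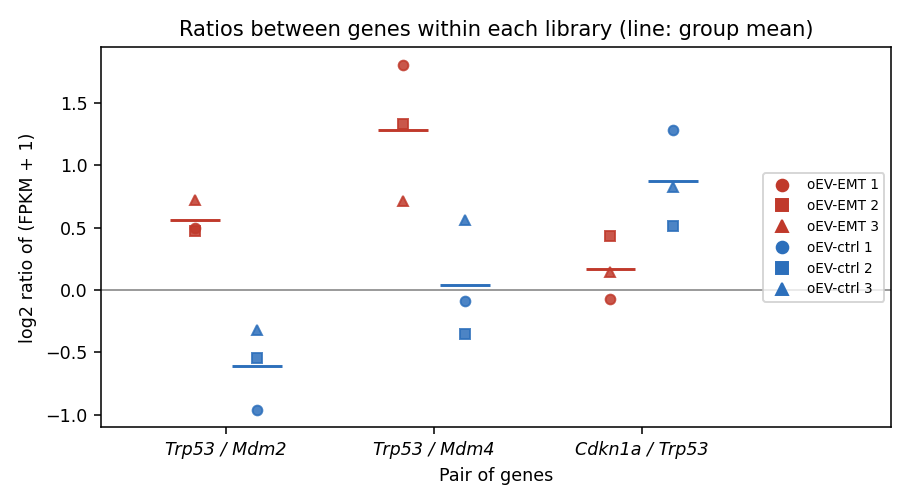
Log2 ratio of (FPKM + 1) for each pair of genes in each library, oEV-EMT in red and oEV-ctrl in blue, with symbols for libraries 1, 2 and 3 and a line at each group mean. The groups do not overlap for any of the 3 pairs, and the gap between them is widest for *Trp53* over *Mdm2*.

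Among the targets that act on the cell cycle and growth, *Phlda3* was the gene without overlap between the groups. *Phlda3* (chr1:135766119-135769136, plus strand) encodes a small membrane-binding protein that restrains Akt, and it stood at 8.27, 6.91 and 3.75 FPKM with oEV-EMT and at 2.65, 1.07 and 3.35 FPKM with oEV-ctrl. The groups did not overlap, though oEV-EMT 3 and oEV-ctrl 3 nearly met. The log2 fold change was 1.13 (SE 0.34, 95% interval 0.38 to 1.89), or 0.96 above the median of all genes, with an unadjusted p of 0.00714 and an adjusted p of 0.185 by limma with Benjamini-Hochberg adjustment. A pseudocount of 5 in place of 1 brought it to 0.61. With a pseudocount of 0.1 it was 1.45, above the 1.29 of *Trp53*. Without oEV-EMT 1 it was also the larger of the pair, at 0.94 against 0.89.

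*Cdkn1a* (chr17:29090976-29100727, plus strand), the inhibitor of cyclin-dependent kinases and the best-known p53 target, stood at 47.4, 35.2 and 25.1 FPKM with oEV-EMT and at 26.6, 15.96 and 31.98 FPKM with oEV-ctrl. The lowest oEV-EMT library lay below 2 of the oEV-ctrl libraries, so the groups overlapped. Its log2 fold change was 0.52 (SE 0.31, 95% interval -0.15 to 1.20), with an adjusted p of 0.438 by limma with Benjamini-Hochberg adjustment, and it was 0.30 without oEV-EMT 1 and 0.25 without oEV-ctrl 2. An antisense gene, AC167363.2, shares 273 exonic bases with *Cdkn1a* and was listed at no more than 0.0388 FPKM, and without stated strand the reads of the pair cannot be told apart. *Ccng1* (chr11:40748552-40755311, minus strand) encodes cyclin G1, which brings a phosphatase to Mdm2, and it was the most abundant of the 10 genes in both groups. Its values were 46.3, 39.3 and 48.02 FPKM against 36.9, 30.1 and 48.2 FPKM, with the highest of all in oEV-ctrl 3. Its log2 fold change was 0.23 (95% interval -0.28 to 0.73), with an adjusted p of 0.661 by limma with Benjamini-Hochberg adjustment. *Zmat3* (chr3:32334792-32366014, minus strand), an RNA-binding zinc finger protein, was the least abundant, at 1.44, 0.694 and 0.589 FPKM against 0.696, 0.477 and 0.674 FPKM. It reached 1 FPKM in oEV-EMT 1 alone and was left out of the test, and its log2 means differed by 0.22.

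The targets of metabolism and oxidant defence overlapped between the groups. *Sesn1* (chr10:41809935-41908424, plus strand) and *Sesn2* (chr4:132492032-132510501, minus strand) encode sestrins, stress-induced proteins that restrain the growth kinase mTOR. *Sesn1* stood at 3.43, 2.61 and 2.94 FPKM against 2.89, 2.18 and 3.07 FPKM, and *Sesn2* at 5.48, 2.27 and 3.40 FPKM against 3.003, 2.57 and 3.33 FPKM. Both overlapped between the groups, and the mean of *Sesn2* was raised by oEV-EMT 1, without which its log2 fold change was -0.06. The log2 fold changes were 0.11 (95% interval -0.37 to 0.59) for *Sesn1* and 0.20 (95% interval -0.41 to 0.80) for *Sesn2*, with adjusted p of 0.836 and 0.758 by limma with Benjamini-Hochberg adjustment. *Trp53inp1* (chr4:11156431-11174379, plus strand), which encodes a stress protein that acts with p53 in oxidant defence, stood at 8.32, 4.92 and 4.27 FPKM with oEV-EMT and at 6.20, 5.57 and 6.04 FPKM with oEV-ctrl. The oEV-ctrl values were tightly grouped (SD 0.330 FPKM) inside the wide range of the oEV-EMT values (SD 2.17 FPKM, n = 3 each). The log2 fold change came to -0.06 (95% interval -0.63 to 0.50), with an adjusted p of 0.923 by limma with Benjamini-Hochberg adjustment.

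**Figure D3:**
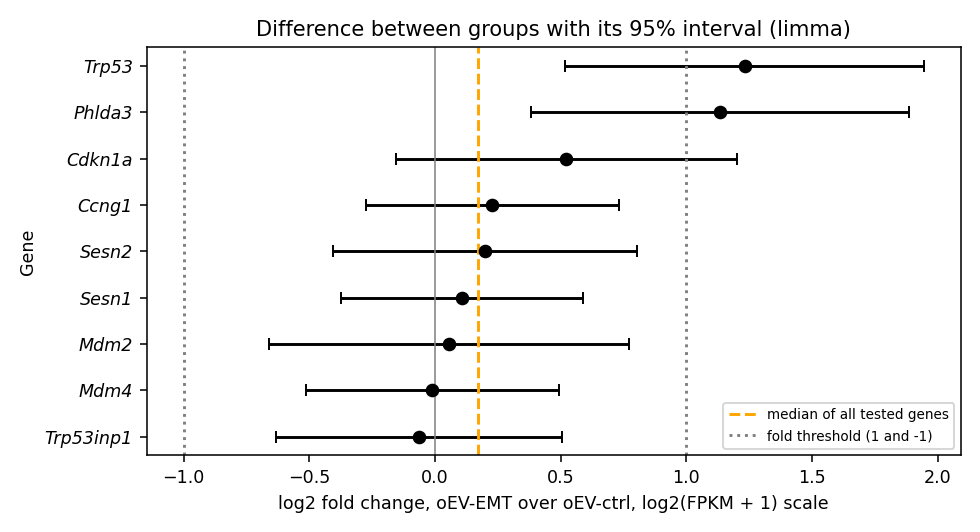
Log2 fold change of oEV-EMT over oEV-ctrl on the log2(FPKM + 1) scale for the 9 tested genes, with the 95% interval from limma, the median of all tested genes (dashed) and the fold threshold (dotted). The intervals of *Trp53* and *Phlda3* lie above 0, and those of the other 7 genes include 0.

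Of the 9 tested genes, 0 passed the thresholds and 2, *Trp53* and *Phlda3*, were higher at an unadjusted p of at most 0.05, beside the 12.8% of all tested genes given above. The same 2 were the genes whose groups did not overlap in the higher direction, a property of 18.1% of all tested genes, and 0 were without overlap in the lower direction, against 4.34% of all. The median log2 fold change of the 9 genes was 0.20, beside 0.17 for all genes, and 5 of them lay above that median and 4 below it. Log2 fold changes of at least 1 were found in 2 of the 9 genes, again *Trp53* and *Phlda3*, and in 2.31% of all tested genes. With so few genes, and a list chosen with earlier results known, these shares are a description.

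Libraries of the same group also differed among themselves in these genes. The highest value was in oEV-EMT 1 for 8 of the 10 genes, and 37.4% of all tested genes were highest there. The exceptions were *Mdm4*, highest in oEV-ctrl 2, and *Ccng1*, highest in oEV-ctrl 3. The lowest value was in oEV-ctrl 2 for 5 of the 10 genes, against 24.7% of all tested genes. By the ratio of low values given above, oEV-EMT 1 also had the highest estimated depth, and the part of depth in these values was not tested.

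In the oEV-EMT libraries the order of mean FPKM, which is per length, ran from *Ccng1*, *Cdkn1a*, *Trp53*, *Mdm2* and *Mdm4* to *Phlda3*, *Trp53inp1*, *Sesn2*, *Sesn1* and *Zmat3*. Neighbours in this order overlapped in range except between *Mdm4* and *Phlda3* and between *Sesn1* and *Zmat3*. In the oEV-ctrl libraries *Mdm2* stood before *Trp53*, and *Phlda3* came after *Sesn1* as the last gene before *Zmat3*. There the ranges were separate between *Mdm4* and *Trp53inp1*, between *Trp53inp1* and *Sesn2* and between *Phlda3* and *Zmat3*, and overlapped for the other neighbours. *Trp53* itself lay between the percentiles 59.5 and 82.3 of the tested genes of each library.

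The rest of the pathway was read from 6 lists, whose counts stand against the 12.8% of all tested genes that were higher and the 2.55% that were lower at an unadjusted p of at most 0.05. Of 19 upstream regulators, 17 were tested, with 0 past the thresholds, 2 higher (all genes 12.8%) and 2 lower (all genes 2.55%) at that p, and a median log2 fold change of 0.05. *Chek2*, the kinase that passes damage signals to p53, stood at 14.5, 11.2 and 8.47 FPKM with oEV-EMT and at 4.26, 5.85 and 6.73 FPKM with oEV-ctrl (log2 fold change 0.90, SE 0.26, adjusted p = 0.174 by limma). *Mapk14*, the stress kinase p38 alpha, stood at 15.1, 7.84 and 7.75 FPKM against 0.306, 0.263 and 5.39 FPKM (log2 fold change 2.30, SE 0.67, adjusted p = 0.216 by limma). Neither gene overlapped between groups, a property in the higher direction of 18.1% of all tested genes. For *Mapk14* the oEV-ctrl libraries themselves ranged from under 1 to 5.39 FPKM. The 2 lower genes were *Ep300*, an acetyltransferase that p53 uses as coactivator, at a log2 fold change of -0.67 (SE 0.26, adjusted p = 0.267 by limma), and *Rpl23*, a ribosomal protein that binds Mdm2, at -0.45 (SE 0.18, adjusted p = 0.276 by limma). *Rpl23* and *Rpl5*, another ribosomal protein gene, were the 2 of this list without overlap in the lower direction (all genes 4.34%). Both were named after their values were seen, to complete these counts. *Cdkn2a*, whose product Arf sequesters Mdm2, was listed at 0 in every library.

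All 12 other negative regulators were tested, and 0 passed the thresholds, 1 was higher (all genes 12.8%) and 0 were lower at the unadjusted p, with a median log2 fold change of 0.17, that of all genes. The 1 higher gene was *Aurka*, a mitotic kinase that also phosphorylates p53, at 223, 221 and 196 FPKM against 117, 113 and 164 FPKM. It did not overlap between the groups (log2 fold change 0.71, SE 0.21, adjusted p = 0.175 by limma). The next in the list by p were the ubiquitin ligase gene *Rchy1* (0.60, SE 0.36, adjusted p = 0.453 by limma) and *Daxx*, which assists Mdm2 (-0.39, SE 0.30, adjusted p = 0.560 by limma). In the lower direction 1 gene of this list was without overlap (all genes 4.34%), *Trim24*, at -0.27 (SE 0.21, adjusted p = 0.570 by limma). It was named after its values were seen.

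Of 12 other cell-cycle and repair targets 11 were tested, with 0 past the thresholds, 1 higher (all genes 12.8%), 0 lower and a median of 0.17. *Sfn*, which holds back entry into mitosis, was the higher gene, at 74.7, 130 and 74.6 FPKM against 50.5, 43.6 and 70.8 FPKM (log2 fold change 0.73, SE 0.28, adjusted p = 0.254 by limma). *Gtse1*, which restrains p53 after damage, and *Ddb2*, which recognises damaged DNA, had log2 fold changes of 0.55 each (SE 0.27 each, adjusted p = 0.358 and 0.367 by limma). Of 11 other metabolic targets 6 were tested, with 0 past the thresholds, 1 higher (all genes 12.8%), 0 lower and a median of 0.17. The higher gene was *Gls2*, a glutaminase, at 3.94, 4.51 and 5.76 FPKM against 1.86, 2.57 and 2.84 FPKM (log2 fold change 0.74, SE 0.23, adjusted p = 0.194 by limma), without overlap. *Tigar*, which lowers glycolytic flux, and *Prkab1*, a subunit of the energy sensor AMPK, had log2 fold changes of 0.38 and 0.35 (adjusted p = 0.453 and 0.479 by limma).

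The apoptotic targets, which had been set apart from the 10 genes, had the highest median of the 6 pathway lists, 0.51 over 9 tested of 12. Again 0 passed the thresholds, while 3 were higher (all genes 12.8%) and 0 lower at the unadjusted p, and 3 were without overlap in the higher direction (all genes 18.1%). Without overlap in that direction were also 3 of 11 tested cell-cycle and repair targets, 2 of 6 metabolic targets and 2 of 17 upstream regulators. Among the 12 other negative regulators there was 1 such gene, and among the 4 tested paralogues 0. *Bax*, which opens the outer mitochondrial membrane, stood at 113, 146 and 105 FPKM against 80.9, 44.9 and 88.7 FPKM (log2 fold change 0.80, SE 0.27, adjusted p = 0.222 by limma). *Bid*, which activates Bax, and *Perp*, a membrane protein, had log2 fold changes of 0.65 and 0.60 (SE 0.22 and 0.25, adjusted p = 0.222 and 0.293 by limma). Of the 9 paralogues of the members 4 were tested, with 0 past the thresholds, 0 higher, 0 lower and a median of -0.21. *Ccng2*, *Trp53inp2* and *Phlda1* were at -0.44, -0.25 and -0.18, while the fourth, *Phlda2*, a relative of *Phlda3*, was at 0.49, and all 4 overlapped between the groups. The p53 relatives *Trp63* and *Trp73* were listed at or near 0 in all libraries.

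**Figure D4:**
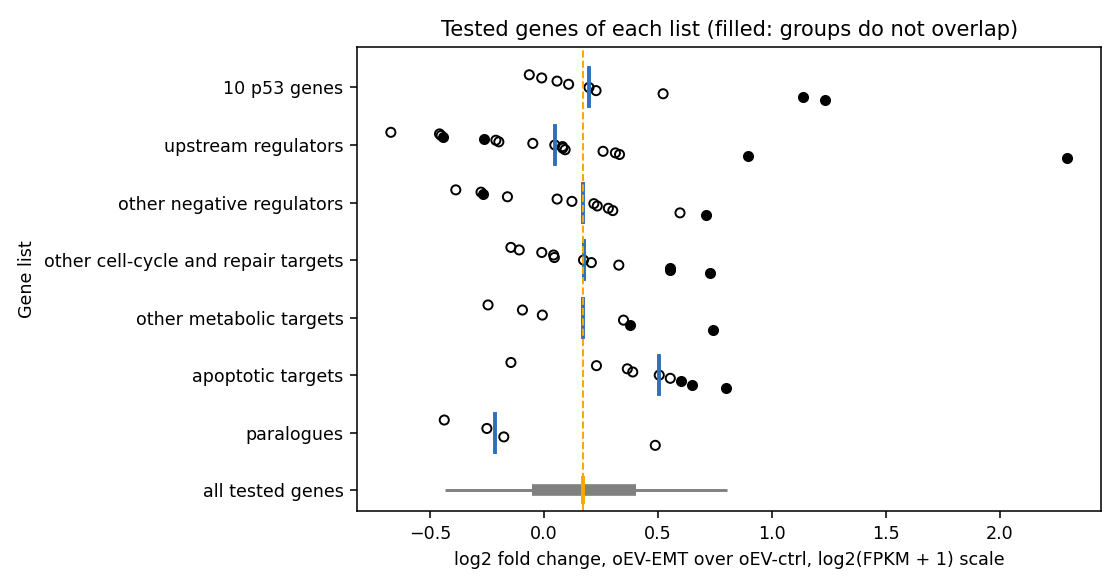
Log2 fold change on the log2(FPKM + 1) scale of each tested gene in the 10 p53 genes and in the 6 pathway lists (points, filled where the groups do not overlap), with list medians in blue. The bar for all tested genes spans the 25th to 75th percentile, its line the 5th to 95th, and the dashed line marks their median of 0.17. The median of the apoptotic targets lies farthest to its right.

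Genes were ranked by how closely they followed *Trp53*, as the root mean square difference of centred log2(FPKM + 1) over the 6 libraries, among 11630 annotated tested genes. The closest was *Ccnd3*, which encodes cyclin D3, at a difference of 0.0827, with 30.5, 17.8 and 13.7 FPKM with oEV-EMT and 6.39, 5.95 and 11.3 FPKM with oEV-ctrl. *Cldn4*, *Snrpc*, the processed pseudogene *Gm6900* and *Rab1b* followed at differences of 0.136, 0.149, 0.150 and 0.153. As their pattern contains the group difference by construction, no test was made of it. Among the other members *Phlda3* was nearest to *Trp53*, at rank 200 (0.337), followed by *Cdkn1a* at rank 746 (0.444), while *Mdm2* was at rank 3776 (0.621) and *Mdm4*, the farthest, at rank 7409 (0.748).

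*Wrap53*, which starts on the other strand 103 bases from *Trp53*, was added after its values were seen. It encodes a protein of the telomerase complex. It stood at 16.6, 14.7 and 14.4 FPKM with oEV-EMT and at 8.75, 6.85 and 10.97 FPKM with oEV-ctrl. The groups did not overlap, and oEV-EMT 1 did not stand out here as it did for *Trp53*. The log2 fold change was 0.74 (SE 0.23, 95% interval 0.23 to 1.24), with an adjusted p of 0.194 by limma with Benjamini-Hochberg adjustment, and its rank of likeness to *Trp53* was 460. The annotated gene models of the pair share 0 exonic bases.

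**Figure D5:**
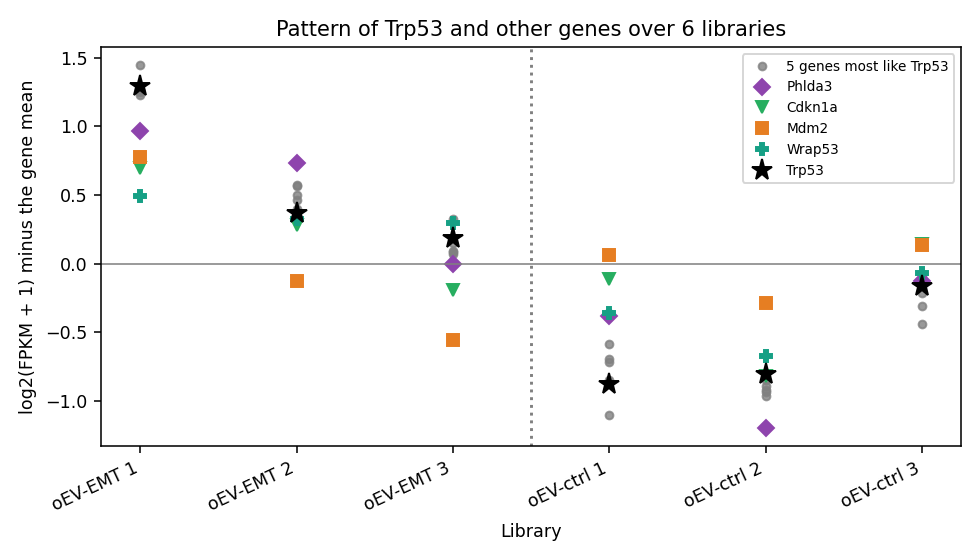
Log2(FPKM + 1) of each gene minus its own mean, in each of the 6 libraries, for *Trp53* (star), the 5 genes most like it (grey), *Phlda3*, *Cdkn1a*, *Mdm2* and *Wrap53*. *Trp53*, the 5 grey genes, *Wrap53* and *Phlda3* are above 0 in every oEV-EMT library and below 0 in every oEV-ctrl library. *Phlda3* is only just above 0 in oEV-EMT 3. *Mdm2* and *Cdkn1a* cross 0 within both groups.

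Cell type markers were read from the same libraries. The summed FPKM of 6 trophectoderm markers ranged from 3097 to 4716 in the oEV-EMT and from 3059 to 4808 in the oEV-ctrl libraries, and 0 of 6 differed at the unadjusted p, with a median log2 fold change of -0.022. Most of that sum came from *Krt8* and *Krt18*, at -0.021 and -0.023. *Cdx2* was at 0.075, *Tfap2c* at 0.041, *Gata3* at -0.26 and *Eomes* at -0.39. All 6 lay below the median of all tested genes. The sum of 6 epiblast markers ranged from 106 to 145 FPKM against 53.2 to 104 FPKM, and 3 of 6, *Pou5f1*, *Nanog* and *Fgf4*, were higher at the unadjusted p (all genes 12.8%), by 0.97, 1.11 and 0.99 on the log2 scale. The other 3 overlapped between the groups, *Sox2* at -0.32, *Klf4* at 0.11 and *Tdgf1* at 0.32, and the median of the 6 was 0.65. The summed epiblast levels did not overlap between the groups, though 106 FPKM in oEV-EMT and 104 FPKM in oEV-ctrl nearly met. Those of the oocyte and polar body markers, given below, did not overlap either. Of 5 primitive endoderm markers, 2 were higher at that p (*Gata4* and *Sox17*, by 0.82 and 0.95, the latter with overlapping groups), while *Sox7* was at 0.52, *Pdgfra* at 0.075 and *Gata6* at -0.19, with a median of 0.52 and sums of 30.3 to 46.9 FPKM against 30.6 to 36.1 FPKM. Of 6 oocyte and polar body markers 2 were tested and 1, *Zp3*, was higher (by 0.79, the other, *Zp2*, being at 0.50), with sums of 3.95 to 7.04 FPKM against 2.42 to 3.34 FPKM. The 6 cumulus and granulosa markers summed to at most 0.344 FPKM, and *Amh*, *Cyp19a1* and *Fshr* were listed at 0 in every library. The part of cell type composition in the values of *Trp53* and *Phlda3* was not tested.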

How the data were processed

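RNA of 6 libraries, each from 10 blastocysts, was analysed, 3 per group as given in the labels. The authors prepared poly(A) libraries, assembled transcripts with StringTie (version not given) on mm10, and deposited 1 value per gene and library. The aligner is not given in the sources used here. The deposited values are called TPM in the methods, but their sums exceed 1000000 and differ between libraries, so they were taken as FPKM deposited by the authors. Read counts were not used here, and the depth in reads is unknown.

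Names and positions came from GENCODE M21 (GRCm38), which held 55141 of 55487 Ensembl identifiers. limma 3.58.1 (R 4.3.3, trended and robust) was run on log2(FPKM + 1) for genes with at least 1 FPKM in at least 3 libraries, with Benjamini-Hochberg adjustment over all of them and no further scaling. Ratios were tested by exact two-sided permutation over libraries. The procedure was tested on simulated data. Alternatives were other scalings, filters, pseudocounts, variance models, weights, a fit with the replicate number as block, and 5 libraries in place of 6.

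The members, lists and tests were chosen with earlier results of these data known. The genes named were the 10 members, the 3 tested genes of each list with the smallest p, the 5 genes most like *Trp53*, and *Gapdh*, the reference gene of the RT-PCR. Neighbouring, overlapping and copy genes, further list members and cell type markers were named after their values were seen. *Zmat3* and *Trp53inp1* had no promoter window here.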

Additional observations from a re-analysis of the deposited data

How the results depend on the processing

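The number of the 10 genes past the thresholds was 0 under all 18 alternatives, an adjusted p of at most 0.05 alone included. *Trp53* kept its direction and stayed short of the threshold in 17 of 17 alternatives, at log2 fold changes of 0.89 to 1.46 and adjusted limma p between 0.0792 and 1, and so did *Phlda3*, at 0.61 to 1.45 and between 0.0822 and 1, and *Cdkn1a*. The number of all genes past the thresholds moved from 0 to 4 with at least 1 FPKM asked of all 6 libraries and to 104 with library quality weights. Leaving out 1 library gave 0 to 17 genes, with 4 without oEV-EMT 1, 1 without oEV-EMT 3 and 17 without oEV-ctrl 3. Upper quartile scaling and a total of 1000000 per library gave 550 higher and 963 lower, and 1921 higher and 192 lower, at the unadjusted p, with medians of all genes of -0.0449 and 0.23.

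The genes near 0 changed sign. Median-of-ratios scaling gave *Mdm2* -0.13 and *Sesn1* -0.038, upper quartile scaling gave *Mdm2* -0.20, *Sesn1* -0.087, *Ccng1* -0.031 and *Sesn2* -0.0029, and scaling to *Gapdh* gave *Mdm2* -0.18 and *Ccng1* -0.12. Library quality weights gave *Mdm2* -0.10 and *Sesn2* -0.10, and a total of 1000000 gave *Mdm4* 0.074 and *Trp53inp1* 0.018. Leaving out 1 library gave ranges of -0.32 to 0.35 for *Mdm2*, -0.060 to 0.43 for *Sesn2*, -0.086 to 0.14 for *Mdm4*, -0.31 to 0.10 for *Trp53inp1* and -0.00035 to 0.18 for *Sesn1*. The cause was not tested.

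Whether the replicate numbers pair the samples is not known. Deviations from the group means of equal numbers correlated at 0.119, -0.0442 and 0.0388, and not every sample correlated best with its own number. With so few libraries such correlations cannot decide whether samples were paired. With the replicate block 21 genes passed the thresholds, none of them a member, and the 3 ratios had an exact p of 0.25, the smallest that 3 pairs allow. The ratios kept their direction in 9 of 9 alternatives each, with differences of 0.97 to 1.32 for *Trp53* to *Mdm2*, 0.98 to 1.53 for *Trp53* to *Mdm4* and -0.89 to -0.50 for *Cdkn1a* to *Trp53*. Read depth is unknown, so no counting error could be given.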

Other observations

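*Gapdh*, the reference gene of the RT-PCR, stood at 3.18, 2.59 and 48.6 FPKM with oEV-EMT and at 13.6, 3.65 and 3.57 FPKM with oEV-ctrl. Its own log2 fold change was 0.42 with an SE of 1.23, so scaling to it carries this spread into every gene. With every library scaled to it, 4 genes were higher and 1 lower at the unadjusted p, and *Trp53* was at a log2 fold change of 0.93. These counts therefore cannot decide whether the differences depend on scaling. Sequence shared with other genes was searched for the members only, not for *Gapdh*. Whether its FPKM reflect its mRNA, or its stability in the RT-PCR, was not tested.

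*Cep57l1* starts 63 bases from *Sesn1* on the other strand and was looked at after its values were seen. It stood at 14.6, 22.4 and 23.4 FPKM with oEV-EMT and at 11.6, 16.9 and 13.7 FPKM with oEV-ctrl, with overlapping groups and a log2 fold change of 0.47 (SE 0.25, adjusted p = 0.393 by limma with Benjamini-Hochberg adjustment).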
